A study of Mus musculus with 12 samples.

Results

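The genes described here encode the proteasome and the proteins that build and cap it. They were chosen by symbol: every listed gene whose name begins with Psma, Psmb, Psmc, Psmd, Psme, Psmf or Psmg followed by a number, which gave 49 of the 12339 genes in the count table. Of these, 47 encode subunits, activators, an inhibitor or assembly chaperones. The other 2, Psmc3ip and Psme3ip1, match the symbol rule but encode proteins that interact with a subunit or activator. All 49 passed the filter on low counts, as did all 12339 listed genes, so the filter removed none. Psmb11, the thymus subunit, and Psme2b were not analysed here.

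RNA was sequenced from macrophages of wild-type mice (WT) and of a line labelled meKO, read from the series title as lacking protein kinase C epsilon (gene Prkce) in myeloid cells. Which recombinase line drives the deletion is not stated in the labels. All mice, the chow controls included, received the viral vector AAV8PCSK9 at 8 weeks of age, which removes the LDL receptor from liver cells, and mice of each genotype then ate either chow or a high-fat "Western" diet (HFD). After 4 weeks, thioglycolate was used to recruit macrophages to the peritoneal cavity, from which they were washed out, so the cells are elicited macrophages and not those of an arterial lesion. Each of the 4 combinations of genotype and diet had 3 libraries, and the labels mention 8 mice per genotype. Nothing in the labels says that the 3 libraries of a group came from separate mice, so p-values measure the spread between these libraries.

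The proteasome is the cell's main protease for proteins tagged with ubiquitin. Its core is a barrel of stacked rings: outer alpha rings that gate the entrance, and inner beta rings whose subunits beta1 (Psmb6), beta2 (Psmb7) and beta5 (Psmb5) cut the substrate. A regulatory particle on the barrel's end recognises ubiquitin, unfolds the substrate with a ring of ATPases and threads it into the core. In immune cells interferon induces replacement catalytic subunits (Psmb9, Psmb10 and Psmb8) and the activator cap formed by Psme1 and Psme2, which change the peptides available to MHC class I. In macrophages these enzymes also degrade regulators of inflammatory signalling.

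Short stretches of the start regions are shown first, since the textbook regulators of these genes bind there and most core subunits moved together below. Windows of 250 bases before each annotated start came from a RefSeq table (GRCm38.p6), in which 41 of the 49 genes had an entry. A gene with several windows was counted once, as holding a motif if any of its windows did. The first set holds the core of the antioxidant response element, TGACNNNGC on either strand, the kind of site used by Nrf1 (Nfe2l1), the activator known for inducing proteasome genes when the protease is inhibited. Capitals mark the match and each stretch reads 5′ to 3′ on the gene's strand.
Psmb5: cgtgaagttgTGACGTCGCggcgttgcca
Psmb6: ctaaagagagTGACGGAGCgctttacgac
Psmd9: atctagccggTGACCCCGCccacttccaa
Psmd12: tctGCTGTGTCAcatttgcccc
Psmc6: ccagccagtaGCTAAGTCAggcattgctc
These lie at chr14:54618024-54618052 (minus strand), chr11:70525338-70525366 (plus), chr5:123228149-123228177 (plus), chr11:107479278-107479299 (plus) and chr14:45329587-45329615 (plus). The element was present in 5 of the 41 genes with a window, or 12.2%, against 14.2% of the 9553 listed genes with one. Of the 4 constitutive beta ring genes with a window, Psmb5 and Psmb6 held it, and 0 of the 7 alpha ring genes did.

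The second set holds the CCAAT box, the site of NF-Y, a general activator of housekeeping genes. It was present in 5 of the 7 alpha ring genes with a window, 71.4%, but in 1 of 4 constitutive beta ring genes and 2 of 5 ATPases. The share over all 41 genes was 36.6%, against 40.9% of all listed genes with a window. The alpha ring stretches are shown with that of Psme3, one of the members that fell below. In Psme3 the box is on the other strand and reads ATTGG.
Psma1: gagcttcctgCCAATcccacgttct
Psma2: tgactctcctCCAATcagagcaaag
Psma3: cttagctcttCCAATaccagtttca
Psma6: ccactaggtgCCAATggaattcctg
Psma7: ctgcctgtcgCCAATgcgcgctcga
Psme3: agtgccggcgATTGGctgtgacgca
Their positions are chr7:114276200-114276224 (minus), chr13:14613178-14613202 (plus), chr12:70974474-70974498 (plus), chr12:55384183-55384207 (plus), chr2:180042646-180042670 (minus) and chr11:101316189-101316213 (plus). The core of the interferon-stimulated response element was found in 3 of the 41 genes (7.32%, against 3.45% of all listed genes with a window), namely Psmb3, Psmd4 and Psmd9. The GAS element, TTCNNNGAA, was found in 2 (4.88%, against 7.21%), namely Psmb8 and Psmg1. Both strands were searched for each motif, no match was tested for binding, and its part in any change below was not tested.

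In WT macrophages most core and ATPase subunits were more abundant on HFD than on chow. The summed level of the 49 genes was 3433, 3578 and 4185 CPM (counts scaled to library size with TMM factors) in the WT chow libraries and 4909, 4911 and 5575 CPM in WT HFD, a ratio of means of 1.38. It was 4569, 4755 and 4090 CPM in meKO chow and 4737, 6146 and 5343 CPM in meKO HFD, a ratio of 1.21. In WT every HFD library lay above every chow library, while in meKO 1 HFD library, at 4737 CPM, fell below the highest chow library.

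Each gene was tested with edgeR's quasi-likelihood test over all 12339 genes and called where the p, adjusted by Benjamini and Hochberg's method, was below 0.05. For diet in WT, 27 of the 49 genes rose and 2, Psme3 and Psmd3, fell. Over all genes 9.5% rose and 11.8% fell in this comparison. The median log2 fold change was 0.47 for the 49 genes and -0.03 for all genes. By role, 7 of 7 constitutive beta subunits rose, 6 of 8 alpha subunits, 5 of 6 regulatory ATPases and 3 of 11 other regulatory particle subunits. Also higher were 2 of 3 inducible beta subunits, 3 of 7 assembly factors and 1 of 5 activators and inhibitor. The levels of 34 genes did not overlap between the WT groups in the direction of a rise, and of 2 in that of a fall, against 19.4% and 19.9% of all genes.

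**Figure D1:**
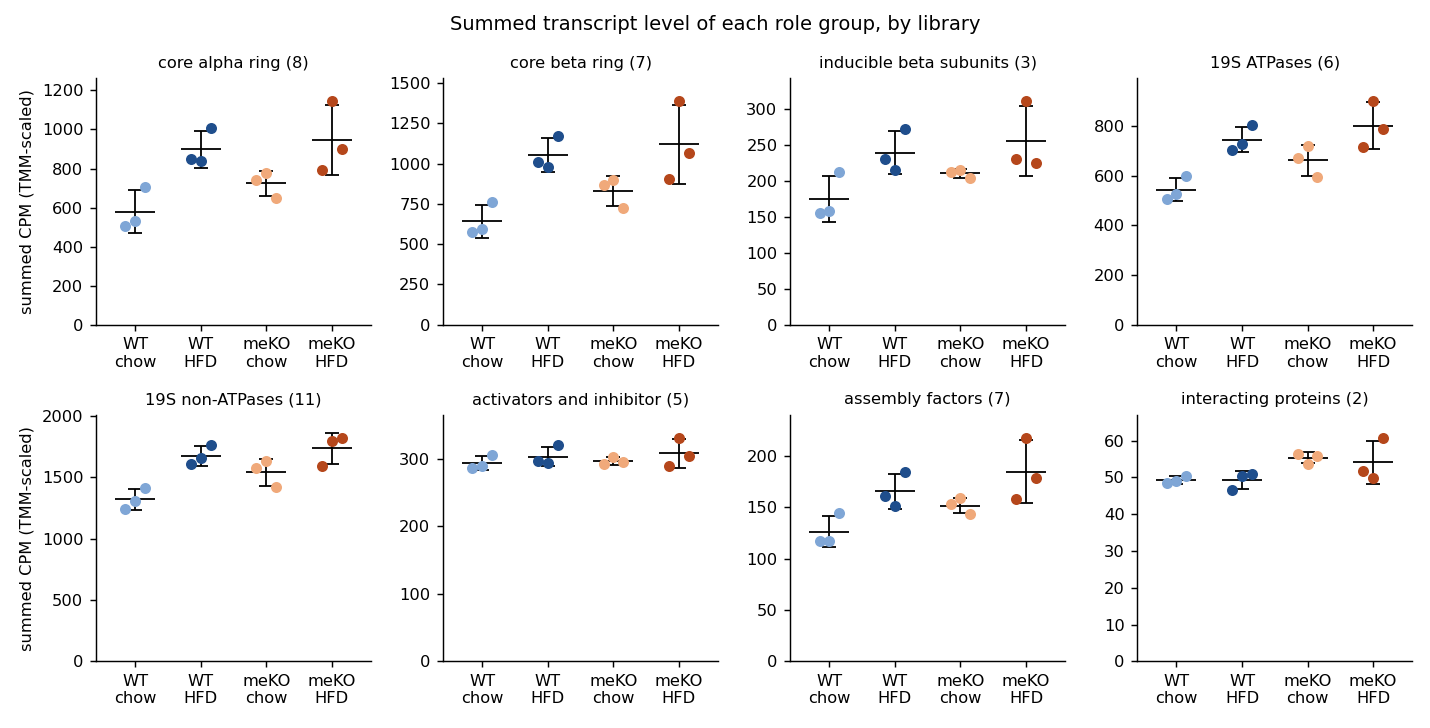
Summed TMM-scaled CPM of each role group (number of genes in brackets) in each of the 12 libraries; points are libraries, horizontal bars the group mean and error bars the SD (n = 3). The constitutive beta ring sum lay between 573.7 and 760.5 CPM in WT chow and between 976.1 and 1171 CPM in WT HFD, while the activators and inhibitor stood between 286.7 and 331.4 CPM in all 12 libraries.

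The constitutive beta ring, which carries the catalytic sites, held the largest median change of the roles, 0.76. Its sum rose from 642 ± 103 to 1053 ± 104 CPM in WT (SD, n = 3), a ratio of 1.64, and stood at 829 ± 91.3 and 1119 ± 247 CPM in meKO chow and HFD, a ratio of 1.35. The 7 log2 fold changes in WT lay close together, between 0.60 for Psmb4 and 0.79 for Psmb3 and Psmb6. The ring also had the shortest median transcript of the roles, 899 bases, and change in WT fell with length, as given below. With the trend of length and GC content removed, its median change was 0.40, still the largest of the roles.

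Psmb6 encodes beta1, the subunit with caspase-like activity (Entrez gene 19175, chromosome 11, 70525367 to 70527858, plus strand; transcript of 798 bases). It stood at 170.5, 166.6 and 214.7 CPM in WT chow and at 310.3, 302.5 and 338.1 CPM in WT HFD. In meKO it had 264.9, 276.1 and 219.8 CPM on chow and 284.7, 452 and 340.4 CPM on HFD. Within each genotype all HFD libraries exceeded all chow libraries. The log2 fold change in WT was 0.79 ± 0.16 (SE; edgeR adjusted p = 0.0123), and in meKO it was 0.50 ± 0.16 and did not pass (edgeR adjusted p = 0.21).

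Psmb5 (Entrez gene 19173, chromosome 14) encodes beta5, the chymotrypsin-like subunit that proteasome inhibitor drugs bind. It stood at 21.1, 24.5 and 28.6 CPM in WT chow and at 37, 39.9 and 49.8 CPM in WT HFD, with no overlap. Values in meKO were 36.8, 39.2 and 28.4 CPM on chow and 35.8, 50.9 and 45 CPM on HFD, which overlap. It rose by a log2 fold change of 0.77 ± 0.17 in WT (SE; edgeR adjusted p = 0.0154).

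Psmb7 (Entrez gene 19177, chromosome 2, 38588036 to 38644087, minus strand) encodes beta2, the trypsin-like subunit. It stood at 79, 82.8 and 99.9 CPM in WT chow and at 129.3, 125.6 and 164.1 CPM in WT HFD. Its meKO libraries had 112.5, 118.2 and 96.5 CPM on chow and 116.7, 175.3 and 135.3 CPM on HFD. The WT groups did not overlap and the meKO groups did. The rise in WT was 0.68 ± 0.16 (SE; edgeR adjusted p = 0.0176). An exon of Psmb7 shares 253 bases with Nek6 on the opposite strand, and the strand setting of the counting is not given in the sources used here, so its counts could include reads of Nek6. RefSeq also lists pseudogenes of Psma5, Psmb5, Psmb6 and Psmb7, and reads that fit both copies could have been counted either way.

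Psmb8, the replacement for beta5 (Entrez gene 16913, chromosome 17, 34197721 to 34201454, plus strand), stood at 91, 92.8 and 117.7 CPM in WT chow and at 132.1, 123 and 148.7 CPM in WT HFD. Levels in meKO were 120.6, 126.8 and 121.2 CPM on chow and 133.6, 176.9 and 126.6 CPM on HFD. The WT groups did not overlap, and the log2 fold change of 0.42 ± 0.14 (SE) passed narrowly (edgeR adjusted p = 0.0465).

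Psmb10, the replacement for beta2 (Entrez gene 19171, chromosome 8, 105935735 to 105938444, minus strand), had 40, 41.1 and 60 CPM in WT chow and 65.2, 61.7 and 79.4 CPM in WT HFD. Expression in meKO stood at 60.1, 56.4 and 51.2 CPM on chow and 62.6, 88.4 and 68.4 CPM on HFD. No HFD library of either genotype overlapped its chow libraries, and in WT it rose by 0.55 ± 0.17 (SE; edgeR adjusted p = 0.039).

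Psmb9, the replacement for beta1 (Entrez gene 16912, chromosome 17, 34181987 to 34187764, minus strand), had 23.9, 24.7 and 34 CPM in WT chow and 32.5, 30.3 and 44 CPM in WT HFD. In meKO it had 32.1, 31.4 and 31.1 CPM on chow and 33.3, 45.7 and 29.5 CPM on HFD. The groups overlapped in both genotypes, and the log2 fold change in WT, 0.37 ± 0.18 (SE), did not pass (edgeR adjusted p = 0.147). Psmb9 shares 212 exonic bases with Tap1 on the opposite strand.

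Levels can be compared between genes after division by transcript length. On that scale the ratio of Psmb8 to Psmb5 was 2.25 ± 0.142 in WT chow and 1.77 ± 0.173 in WT HFD, and 1.98 ± 0.323 and 1.84 ± 0.263 in meKO chow and HFD (SD, n = 3). The ratio of Psmb9 to Psmb6 was 0.0878 ± 0.00539 in WT chow and 0.0659 ± 0.00949 in WT HFD, and 0.0741 ± 0.00856 and 0.06 ± 0.00898 in meKO. That of Psmb10 to Psmb7 was 0.473 ± 0.0508 and 0.436 ± 0.00907 in WT, and 0.455 ± 0.0285 and 0.456 ± 0.016 in meKO. So by this measure the transcript of the inducible subunit exceeded its constitutive counterpart only for the beta5 pair. The ratios of the beta5 and beta1 pairs were lower in each of the WT HFD libraries than in each of the WT chow libraries. In both pairs the inducible gene has the longer transcript (1628 against 899 bases, and 1352 against 798), and length moved with diet in WT, as given below. With the trend of length and GC content removed, the Psmb8 to Psmb5 ratio was 2.06 ± 0.202 in WT chow and 1.87 ± 0.172 in WT HFD, and that of Psmb9 to Psmb6 was 0.082 ± 0.00882 and 0.0686 ± 0.0109 (SD, n = 3). The WT groups then overlapped for both pairs. These are descriptions of single ratios and were not tested.

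**Figure D2:**
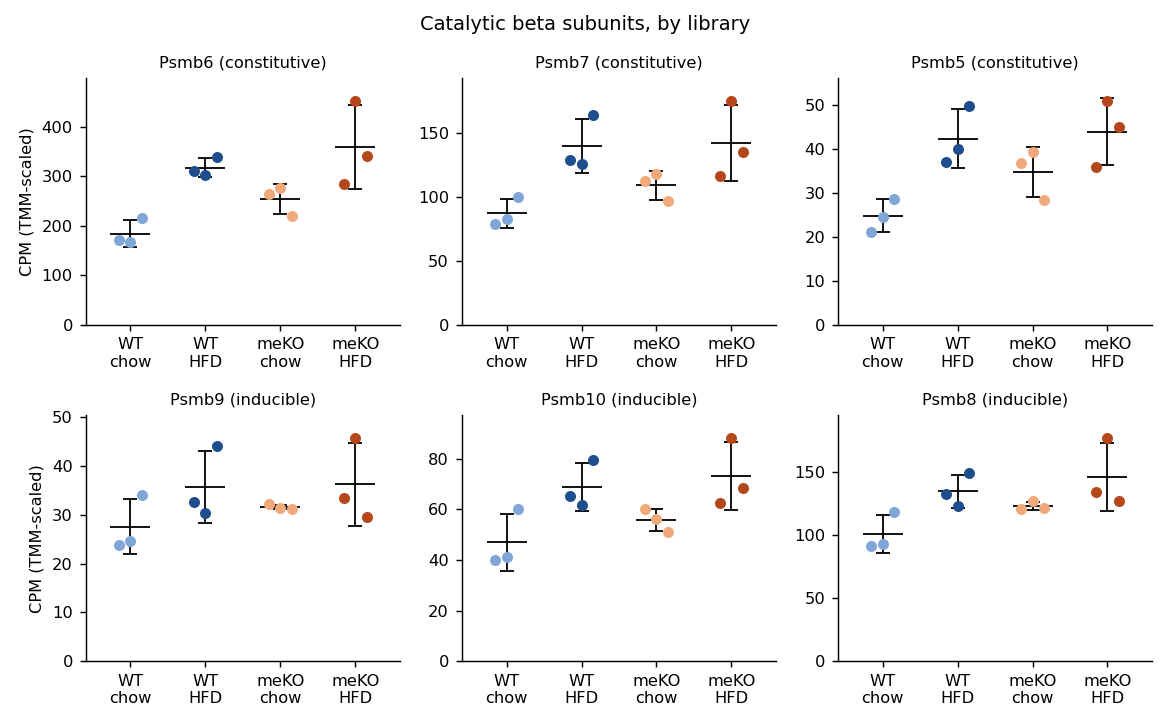
TMM-scaled CPM of the 3 constitutive catalytic subunits (top) and their inducible replacements (bottom, same column) in each library; points are libraries, horizontal bars means and error bars SD (n = 3). The WT HFD points lie above all WT chow points for all but Psmb9, whose lowest WT HFD library, 30.3 CPM, is below its highest WT chow library, 34 CPM.

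The alpha ring forms the gated entrance of the core. Its sum rose from 580 ± 108 to 899 ± 93.8 CPM in WT (SD, n = 3), a ratio of 1.55, and stood at 724 ± 64.9 and 947 ± 181 CPM in meKO chow and HFD. Psma7 (Entrez gene 26444, chromosome 2, 180036374 to 180042433, minus strand; 914 bases) had the smallest p of the 49 genes. It stood at 102.8, 113.7 and 144.6 CPM in WT chow and at 201.4, 194.5 and 228.2 CPM in WT HFD. Values in meKO were 173.1, 171.7 and 140.7 CPM on chow and 183.2, 255.1 and 193.6 CPM on HFD. Neither pair of groups overlapped, and in WT it rose by 0.79 ± 0.15 (SE; edgeR adjusted p = 0.0111). Psma1, Psma2, Psma3, Psma4 and Psma6 rose as well, by log2 fold changes between 0.55 and 0.64.

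The remaining alpha genes did not pass in WT. Psma5 went from 11 ± 3.01 to 15.3 ± 1.11 CPM (SD, n = 3; log2 fold change 0.48, edgeR adjusted p = 0.066). Psma8, whose product replaces the Psma7 subunit in the testis, was near the bottom of the list, at 2.05 ± 0.629 and 2.27 ± 0.241 CPM. Per kilobase, Psma3 and Psma5 averaged 6.56 and 11.3 CPM over the 12 libraries, against 192 for Psma7, although each alpha ring holds the products in equal number. Annotated transcript length is a rough divisor, since the isoform used in these cells was not measured.

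In the regulatory particle, the log2 fold changes of the 6 ATPases that unfold the substrate spanned 0.32 to 0.57 in WT, a narrower range than the -0.54 to 0.69 of its 11 other subunits. The ATPase sum went from 544 CPM in WT chow to 746 CPM in WT HFD, a ratio of 1.37, and from 662 to 802 CPM in meKO. Psmc4 (Entrez gene 23996, chromosome 7, 28041707 to 28050101, minus strand; 1440 bases) stood at 71.8, 74.1 and 79.8 CPM in WT chow and at 106.5, 109.4 and 118.4 CPM in WT HFD. Its meKO libraries had 99.3, 104.1 and 83.8 CPM on chow and 105.2, 135.3 and 121.6 CPM on HFD. Neither pair overlapped. The rise in WT was 0.57 ± 0.12 (SE; edgeR adjusted p = 0.0125).

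Psmc6 (Entrez gene 67089, chromosome 14, 45329788 to 45349705, plus strand), another ATPase of the ring and one of those with the antioxidant element shown above, had 70.7, 74.3 and 89.9 CPM in WT chow and 103.4, 106.4 and 114.6 CPM in WT HFD. Levels in meKO were 85.1, 91.7 and 86.5 CPM on chow and 101.7, 134 and 108.4 CPM on HFD. Its groups did not overlap in either genotype, and its log2 fold changes were 0.47 ± 0.12 in WT (SE; edgeR adjusted p = 0.0239) and 0.39 ± 0.12 in meKO (edgeR adjusted p = 0.211). Psmc2, Psmc3 and Psmc5 also rose in WT, by 0.39, 0.56 and 0.38, and Psmc1 had 0.32 with an edgeR adjusted p of 0.0659.

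Among the 11 other regulatory particle subunits, Psmd6, Psmd7 and Psmd8 rose and Psmd3 fell. Psmd8 (Entrez gene 57296, chromosome 7, 29174188 to 29180701, minus strand), a subunit of the lid, had the highest level per kilobase of the 49 genes, a mean of 383 CPM. It stood at 366, 417.4 and 509.1 CPM in WT chow and at 691.3, 676.2 and 716.7 CPM in WT HFD. Expression in meKO stood at 609.8, 596.4 and 475.1 CPM on chow and 571.7, 740.1 and 700.5 CPM on HFD. The WT groups were far apart and the meKO groups overlapped. Its log2 fold changes were 0.69 ± 0.14 in WT (SE; edgeR adjusted p = 0.0125) and 0.26 ± 0.14 in meKO (edgeR adjusted p = 0.368). Psmd6 and Psmd7, also lid subunits, rose by 0.31 and 0.38 in WT (edgeR adjusted p = 0.0415 and 0.0498).

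Psmd3 (Entrez gene 22123, chromosome 11, 98682554 to 98695979, plus strand) is a structural subunit of the same lid and went the other way. It stood at 42.8, 39.4 and 33.3 CPM in WT chow and at 24, 31.3 and 24.2 CPM in WT HFD. In meKO it had 39.6, 30.3 and 37.2 CPM on chow and 34.2, 22.9 and 32 CPM on HFD. The WT groups did not overlap and the meKO groups did. Its log2 fold change was -0.54 ± 0.17 in WT (SE; edgeR adjusted p = 0.039) and -0.27 ± 0.17 in meKO (edgeR adjusted p = 0.432). The other lid and base genes, Psmd1, Psmd2, Psmd4, Psmd11, Psmd12, Psmd13 and Psmd14, had log2 fold changes in WT between -0.13 and 0.36 and did not pass. Psmd14, which removes ubiquitin from the substrate, was among these, at 80.3 ± 6.24 CPM in WT chow and 94.1 ± 11 CPM in WT HFD (SD, n = 3).

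The caps that can take the place of the regulatory particle showed no common direction. Psme1 and Psme2 encode the interferon-inducible cap. Psme1 (Entrez gene 19186, chromosome 14, 55578123 to 55581529, plus strand) stood at 108.3, 105.2 and 152.8 CPM in WT chow and at 144.2, 142.7 and 176.2 CPM in WT HFD, with overlap. Values in meKO were 146.7, 152.7 and 143.2 CPM on chow and 143.2, 183.5 and 165.1 CPM on HFD. Its log2 fold change in WT, 0.34 ± 0.15 (SE), did not pass (edgeR adjusted p = 0.105).

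Psme2 (Entrez gene 19188, chromosome 14, 55587441 to 55591113, minus strand), which lies next to it, had 11.9, 10.2 and 15.1 CPM in WT chow and 17.6, 18.9 and 18.9 CPM in WT HFD, without overlap. Its meKO libraries had 14.5, 17 and 14.1 CPM on chow and 15.5, 26.8 and 17.7 CPM on HFD. In WT it rose by 0.57 ± 0.19 (SE; edgeR adjusted p = 0.0481). Per kilobase, Psme1 exceeded Psme2 by a ratio of 8.51 ± 0.575 in WT chow and 7.22 ± 0.781 in WT HFD, although the products assemble into one ring.

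Psme3 encodes the cap of nuclear proteasomes, which works without ubiquitin or ATP (Entrez gene 19192, chromosome 11, 101316213 to 101323537, plus strand; 2664 bases). It stood at 66.4, 59.4 and 49.6 CPM in WT chow and at 36.9, 44 and 42.5 CPM in WT HFD. Levels in meKO were 48.3, 41.3 and 49.8 CPM on chow and 43.8, 38.6 and 44.3 CPM on HFD. All WT chow libraries lay above all WT HFD libraries, and the meKO groups overlapped. Its log2 fold change was -0.51 ± 0.13 in WT (SE; edgeR adjusted p = 0.0218) and -0.14 ± 0.13 in meKO (edgeR adjusted p = 0.597). Psme4, a single large protein that caps proteasomes at chromatin, had -0.28 in WT (edgeR adjusted p = 0.13), and Psmf1, named as an inhibitor, stood at 29.5 ± 1.41 and 30.4 ± 2.66 CPM in WT chow and HFD (SD, n = 3).

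The assembly factors act before the finished particle forms. Psmg1 to Psmg4 help build the alpha ring, and Psmd5, Psmd9 and Psmd10 escort the ATPases. In WT, Psmg3, Psmg4 and Psmd10 rose by log2 fold changes of 0.59, 0.87 and 0.47 (edgeR adjusted p = 0.0357, 0.0393 and 0.0441). Psmg4 was low, at 4.72 ± 1.64 CPM in WT chow and 8.6 ± 0.708 CPM in WT HFD (SD, n = 3), and has the shortest transcript of the 49, 555 bases. The other 4 factors had values between 0.25 and 0.49 and did not pass. Of the interacting proteins, Psmc3ip, which acts in meiotic recombination, had the lowest level per kilobase, 1.2 CPM, with 29 to 81 counts per library, and Psme3ip1 had a log2 fold change of -0.02 in WT.

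**Figure D3:**
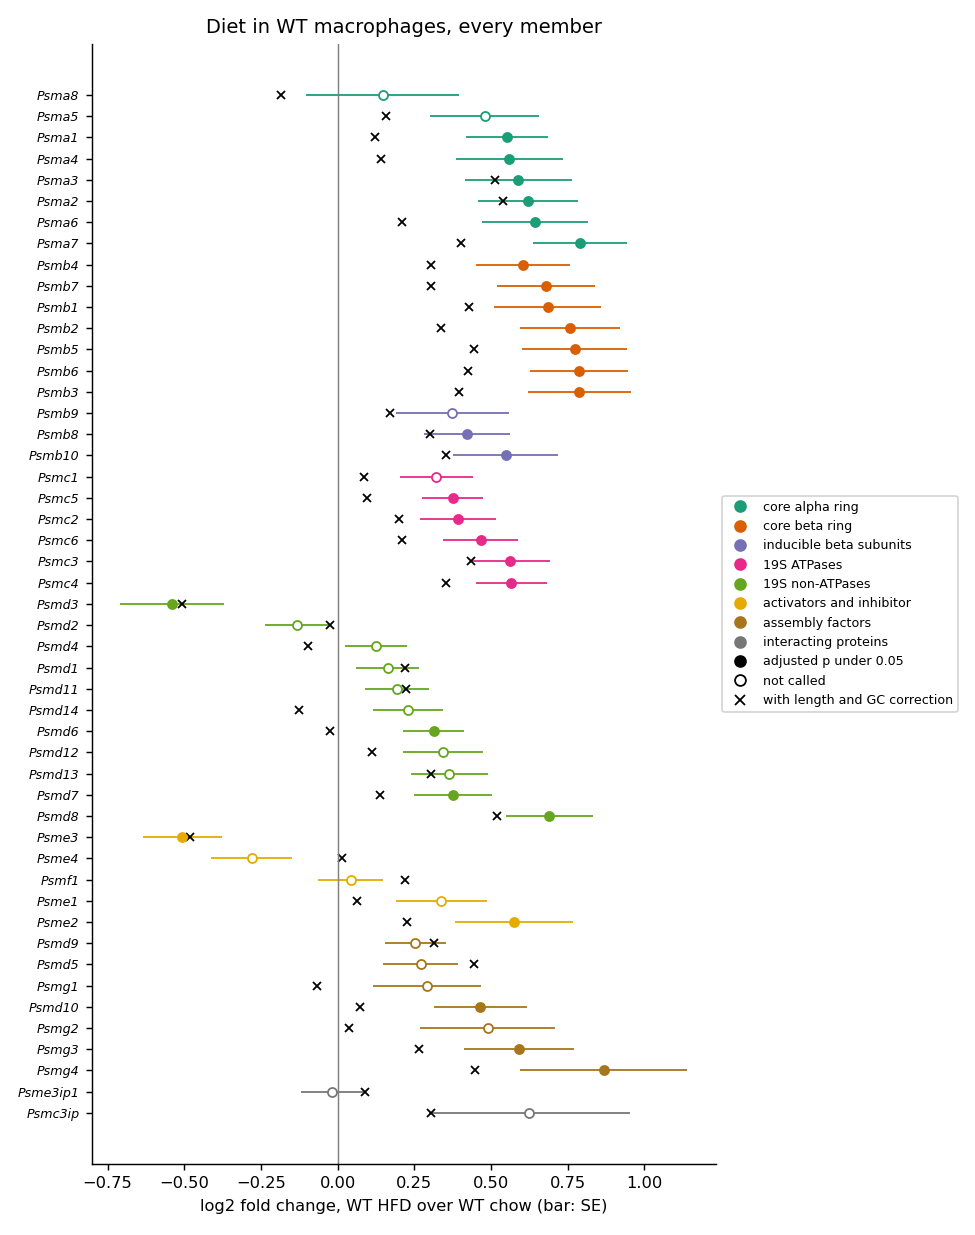
Log2 fold change of each of the 49 genes for HFD over chow in WT, grouped by role, with bars of 1 SE from the edgeR model; filled points have an adjusted p under 0.05. The 7 constitutive beta subunits lie between 0.60 and 0.79, and Psme3 (-0.51) and Psmd3 (-0.54) are the called genes below 0.

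The calls in WT moved with transcript length. The 49 genes have short transcripts, with a median of 1440 bases (range 555 to 6491) against 2955.5 for the 11532 listed genes with an annotated length. When each library's departure from the average level of a gene was ranked against transcript length over genes, Spearman's rho was 0.65 and 0.69 in WT chow replicates 1 and 2 and -0.04 in replicate 3. It was -0.23, -0.13 and -0.46 in the WT HFD libraries, between -0.20 and 0.15 in meKO chow and between -0.48 and -0.15 in meKO HFD. So shorter transcripts were relatively low in 2 of the 3 WT chow libraries, whatever they encoded. Of genes under 1000 bases, 36.2% rose on HFD in WT, and all 8 members of that class did. Between 1000 and 2000 bases the share was 20% of genes, and 16 of 28 members rose. Between 2000 and 4000 bases it was 5.77%, with 3 of 11 members higher and 2 lower. With the correction described next, 5 of the 8 shortest members rose, with a median of 0.40, and 6 of the 28 between 1000 and 2000 bases, with a median of 0.15. Of all genes in these classes 9.48% and 7.01% then rose, with medians of 0.05 and 0.02.

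A smooth trend of length and GC content was therefore removed from each library and the model was refitted. Then 15 members rose and 2 fell in WT, against 7.16% and 5.39% of all genes, and the median of the 49 genes was 0.22. All 17 except Psmd5 and Psmd9 were among the 29 called without the correction. The 7 constitutive beta subunits remained called, with the sum of the ring at 753 ± 6.82 CPM in WT chow and 981 ± 28.4 CPM in WT HFD (SD, n = 3) and a ratio of 1.30. Of the alpha subunits 3 of 8 rose with the correction (median 0.18, against 0.57 without it), and the ratio of the ring's sums was 1.21 in place of 1.55. Of the ATPases 2 of 6 rose (median 0.20, against 0.43; ratio of sums 1.19 in place of 1.37), and of the inducible subunits 0 of 3. Psme3 (-0.48, edgeR adjusted p = 0.0212) and Psmd3 (-0.51, edgeR adjusted p = 0.0343) also remained, as did Psma7, Psmc4 and Psmd8 (0.40, 0.35 and 0.52). Psmb8, Psmb10 and Psme2 did not (edgeR adjusted p = 0.0898, 0.0534 and 0.223), nor did Psmc6 (0.0966).

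**Figure D4:**
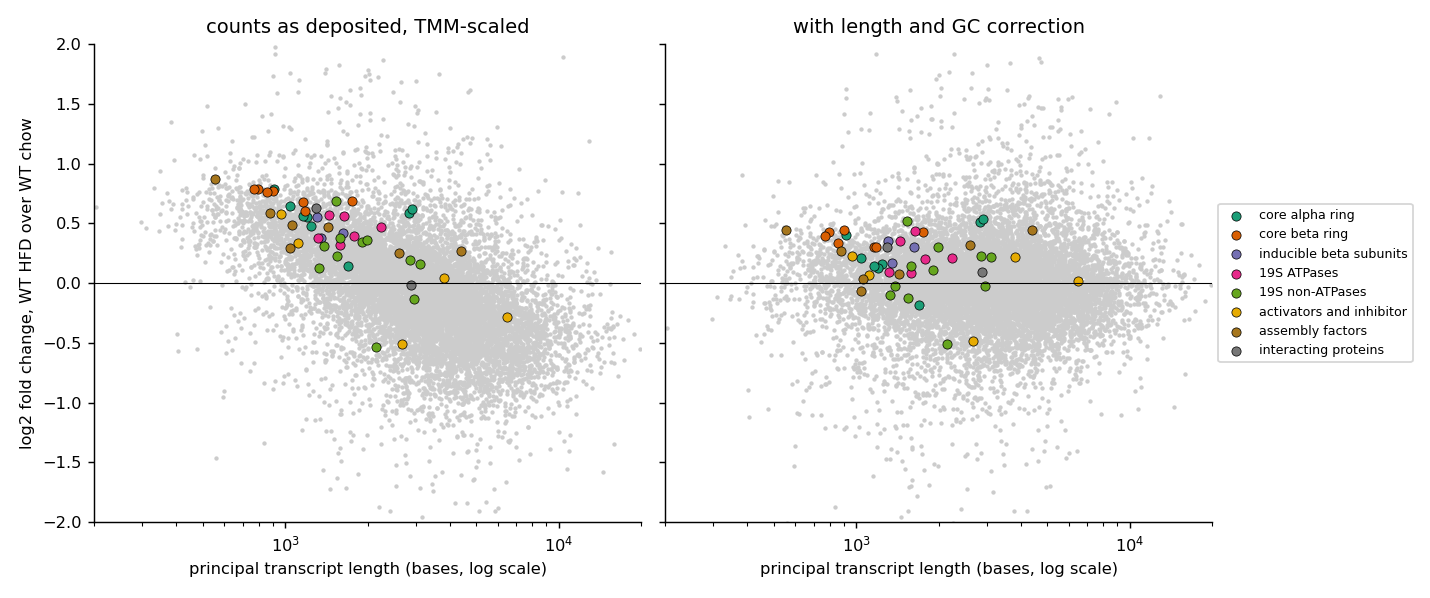
Log2 fold change for HFD over chow in WT against principal transcript length (log scale), without (left) and with (right) the length and GC correction; grey points are the listed genes and coloured points the 49 by role. Of 11532 genes with a length, 28 lie beyond the axes in each panel. The downward slope on the left (rho -0.57 over genes, -0.68 over the 49) is largely gone on the right (rho -0.05 over genes, -0.16 over the 49), where the constitutive beta subunits stay above 0.

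The WT count also rested on single libraries. It was 0 without WT chow replicate 1 and 0 without WT HFD replicate 3, 2 without WT chow replicate 2, 8 without WT HFD replicate 1 and 38 without WT chow replicate 3. The calls over all genes, 2634 with every library, were 129, 96, 319, 460 and 4921 in the same fits. The median log2 fold change of the constitutive beta ring moved less, from 0.76 to 0.68 without WT chow replicate 1, 0.65 without WT HFD replicate 3 and 0.71 without WT chow replicate 2. With the correction and a library left out, a fit added after the data were seen, the count was 0 without WT chow replicate 1, 2 without WT HFD replicate 3, 7 without WT chow replicate 2 and 8 without WT HFD replicate 1. Over all genes these fits called 84, 138, 435 and 298, and the beta ring's median was 0.39, 0.36, 0.39 and 0.43, against 0.40 with every library.

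In meKO no member was called for diet by edgeR, DESeq2, limma-voom or voom with quality weights, where edgeR called 0.0324% of all genes higher and 0.0729% lower. Of the 12339 genes, DESeq2 called 227, limma-voom 9 and voom with quality weights 398 there. At an unadjusted p under 0.05 in edgeR there were 19 members, with 15.9% of all genes below that level. Without meKO HFD replicate 1 edgeR called 1 member, Psmg2, and 1.09% of all genes. The median log2 fold change was 0.29 for the 49 genes and -0.01 for all genes, and 16 genes had HFD libraries all above chow, against 10.3% of all genes. The constitutive beta subunits lay between 0.33 and 0.50, the alpha subunits between 0.22 and 0.48 and the ATPases between 0.18 and 0.39. Change with diet in meKO also fell with transcript length (Spearman's rho -0.34 over genes, -0.56 over the 49). With the length and GC correction the median was 0.14 for the 49 genes and -0.02 for all genes. Whether diet acted differently in the genotypes was tested by the interaction, in which 0 members were called by edgeR (1 at an unadjusted p under 0.05, Psmd8, and 6.13% of all genes), against 0.0162% of all genes higher and 0% lower. The absence of calls in meKO is therefore not a shown difference from WT.

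**Figure D5:**
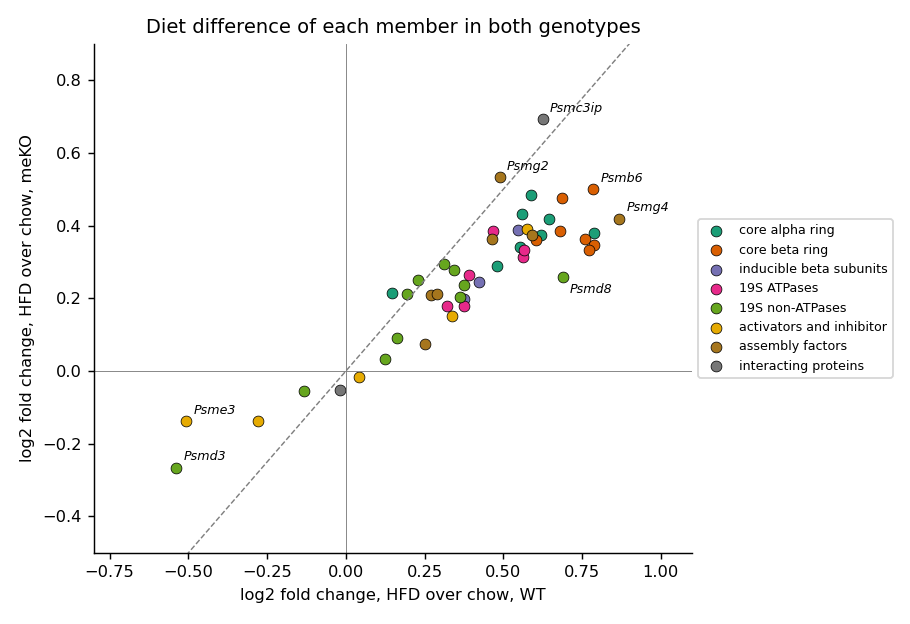
Log2 fold change for HFD over chow of each of the 49 genes in WT (horizontal) and in meKO (vertical), coloured by role; the dashed line marks equal change. Of the 49 points, 43 lie above 0 on both axes and 40 below the dashed line, and the interaction called 0 members. Over all 12339 genes, 5795 had a change above 0 in WT and 6073 in meKO. The interaction was above 0 in 6526 of them and in 9 of the 49. It rose with transcript length (rho 0.49 over genes, 0.61 over the 49). With the length and GC correction its median was -0.09 for the 49 and -0.03 for all genes, against -0.16 and 0.02 without it.

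Averaged over the genotypes, which uses the WT libraries again, 35 members rose and 2 fell on HFD, against 14.9% and 15.3% of all genes, with a median of 0.38. All 7 constitutive beta subunits and all 6 ATPases rose, with 7 of 8 alpha subunits and 5 of 7 assembly factors. Psmb6 had 0.64 ± 0.11 (SE; edgeR adjusted p = 0.00447) and kept its call in each of 21 alternatives, as did Psma7, Psmc4, Psmc6 and Psmd8. The fit without the low-count filter is among these alternatives, and it repeated the main fit because the filter removed no gene. Psmc3ip also passed (0.66 ± 0.23, edgeR adjusted p = 0.0447), from 1.17 ± 0.221 and 1.24 ± 0.244 CPM on chow to 1.8 ± 0.595 and 2.01 ± 0.685 CPM on HFD (WT and meKO; SD, n = 3). It passed in 9 of 21 alternatives and lost its call with the length and GC correction (0.39, edgeR adjusted p = 0.17). An exon of Psmc3ip shares 385 bases with Mlx on the opposite strand. As the strand setting is not given, its few counts could include reads of Mlx. Without the length and GC trend 22 members rose and 2 fell, against 12.2% and 10.8% of all genes, and the members' median was 0.18. With 1 library left out the count of calls was between 23 and 43, and lowest when WT chow replicate 1 or meKO chow replicate 3 (23 each) or WT chow replicate 2 (24) was dropped. Over all genes the leave-out fits called between 1957 and 5326, against 3721 with every library.

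Between genotypes no member was called by edgeR with every library. On chow the median was 0.26 higher in meKO and 0 members passed in edgeR, DESeq2 or limma-voom, with 16 at an unadjusted p under 0.05, as 19.8% of all genes were (edgeR calls over all genes: 0.0324% higher, 0.0486% lower). Of the 12339 genes, DESeq2 called 591 and limma-voom 2. Voom with library quality weights called 33 higher and 2 lower in meKO, where it called 15% of all genes higher and 17.8% lower, and leaving out WT chow replicate 3, the library whose length trend differed from that of its group, gave 18 higher and 2 lower in edgeR, against 7.95% and 12.7% of all genes. With the length correction as well, that fit called 2, against 4.03% of all genes. In 11 genes all meKO chow libraries lay above all WT chow libraries, against 8.87% of all genes. On HFD the median was 0.09, 0 members were called (1 at an unadjusted p under 0.05, Psmg2, and 4.56% of all genes) and no member's groups were apart, against 5.45% of all genes in the direction of a rise. Averaged over diets the median was 0.18, with 0 called by edgeR, where 0.0891% of all genes were higher and 0.081% lower, and 14 at an unadjusted p under 0.05, as 17.7% of all genes were. Voom with quality weights called 30 higher and 1 lower there (14.3% and 16.7% of all genes), and edgeR without WT chow replicate 3 called 2 higher and 1 lower (3.09% and 8.26% of all genes). The genotype difference on chow fell with transcript length (Spearman's rho -0.63 over genes, -0.66 over the 49). With the length and GC correction and every library, the median of the 49 was 0.11 on chow, 0.04 on HFD and 0.06 averaged over diets. That of all genes was 0.02, -0.003 and 0.01.

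Partners outside the symbol rule were read from lists of the pathway. For diet in WT 9.5% of all genes rose and 11.8% fell, and the calls in each list are to be read beside those shares. With the length correction the shares were 7.16% and 5.39%. Of 15 listed proteasome-associated factors, Sem1, a small lid subunit, and Pomp, the chaperone that matures the core, rose in WT, by 0.87 ± 0.21 and 0.65 ± 0.19 (SE; edgeR adjusted p = 0.0193 and 0.0297). Ubqln2, a shuttle that carries ubiquitinated proteins, fell, with -0.71 ± 0.14 (edgeR adjusted p = 0.0116). Their means in WT went from 115 ± 26.1 to 211 ± 20.6 CPM for Sem1, from 135 ± 27 to 212 ± 26.4 CPM for Pomp and from 41.9 ± 5.12 to 25.6 ± 2.58 CPM for Ubqln2 (SD, n = 3). All 3 kept their call after the length correction. The list's median was 0.11, against 0.76 for the constitutive beta ring and 0.57 for the alpha ring. Its transcripts are longer, with a median of 3344 bases against 899 and 1220. With the length correction the median changes were 0.02, 0.40 and 0.18.

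Of 5 ubiquitin and E1 genes, Ubb, a ubiquitin precursor gene, rose by 0.48 ± 0.13 (SE; edgeR adjusted p = 0.0234). Of 12 genes of the Nrf1 pathway, 0 rose and 2 fell in WT, namely Nfe2l1 itself (-0.46 ± 0.15, edgeR adjusted p = 0.0448) and Sel1l, of the machinery that draws it from the endoplasmic reticulum (-0.50 ± 0.15, edgeR adjusted p = 0.0354). With the length correction neither passed (edgeR adjusted p = 0.456 and 0.322), and Mafg, a partner of Nrf1 on DNA, did (edgeR adjusted p = 0.0224). Nfe2l1 stood at 97.6 ± 18.7 CPM in WT chow and 70.8 ± 7.94 CPM in WT HFD (SD, n = 3).

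Of 14 MHC class I processing genes, B2m rose in WT (0.62 ± 0.20, edgeR adjusted p = 0.0462), while Irf8, a transcription factor that drives inducible subunits, and Tap2, a subunit of the peptide transporter, fell. Irf8 had -0.63 ± 0.15 (SE; edgeR adjusted p = 0.0203) and Tap2 had -0.51 ± 0.15 (edgeR adjusted p = 0.0321). After the length correction Irf8 kept its call and Tap2 and B2m did not. Of 12 cytosolic chaperones, Hsp90aa1 and Hspa1a, both induced by heat, rose by 0.63 ± 0.16 and 1.31 ± 0.43 (SE; edgeR adjusted p = 0.0217 and 0.0495). With the length correction 5 of the 12 rose, those 2 with Dnajb1, Dnaja1 and Hspa4. None of these lists held a called gene for diet in meKO or for genotype on chow.

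Other measures also moved with diet in WT. The libraries had 25844958 to 37282772 counts, and every WT library had more Prkce than every meKO library (at least 2.01 against at most 1.78 CPM). All 7 macrophage markers were listed. Without Lyz2 their sum was 4765 to 5489 CPM in WT and 4895 to 6041 CPM in meKO, and Lyz2 itself stood at 30482 to 53835 CPM in WT, at 69.3 CPM in 1 meKO chow library and between 16293 and 21310 CPM in the remaining 5 of that genotype. The summed markers of resident large peritoneal macrophages, 6 of 6 listed, were 262 to 776 CPM in WT chow and 1093 to 1760 CPM in WT HFD, and 506 to 1084 and 652 to 1589 CPM in meKO. B cell markers (5 of 6 listed) summed to 128 to 157 CPM in WT chow and 78.5 to 93.3 CPM in WT HFD, dendritic cell markers (7 of 7) to 33 to 53 and 19 to 28.5 CPM, and mesothelium and fibroblast markers (7 of 7) to 38.9 to 61.9 and 65.6 to 90.9 CPM. In meKO chow and HFD the B cell sums were 93.4 to 158 and 91.4 to 141 CPM and the dendritic cell sums 23.9 to 46.7 and 24.6 to 38.4 CPM, which overlapped. The mesothelium and fibroblast sums were 40.9 to 65.4 and 78.1 to 108 CPM there and did not overlap. Eosinophil markers (3 of 6 listed) summed to 19.9 to 28 CPM in WT chow and 14.1 to 19 CPM in WT HFD, without overlap. In meKO they overlapped. Summed markers of neutrophils, mast cells, T and NK cells and red blood cells overlapped between diets in WT. In meKO the T and NK cell sums did not, at 11.5 to 12.6 CPM on chow and 14.6 to 17.1 CPM on HFD. The part of these cell types in the proteasome changes was not tested. In bulk RNA fewer cells of a type and less RNA per cell cannot be told apart.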

How the data were processed

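The authors deposited whole-number counts per gene for 12 libraries; per the submitters' processing notes the build was mm10 and DESeq2 was used, while the aligner, counter and strand setting are not given in the sources used here. From these counts edgeR 4.0.16 (R 4.3.3) gave TMM factors (0.936 to 1.09), filterByExpr, robust dispersions and quasi-likelihood tests with 4 group means, adjusted over 12339 genes by Benjamini-Hochberg; 186 rows without a symbol (0.44% of counts) stayed in under their Entrez identifiers. Samples were grouped by title. Replicates had r from 0.982 to 0.994, and no pair looked like copies (chi-square per degree of freedom at least 16.9). Lengths came from GENCODE M21, start regions from RefSeq. The correction was a smooth length and GC fit per library (mgcv 1.9.3, basis size 6), used as an offset. The main edgeR fit was tested on simulated counts for diet in WT. Those counts held no length trend, and the correction and the alternative fits were not part of that test.

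The members and lists were chosen with earlier results of these data known. Described in full by rule were the catalytic subunits, Psme1, Psme2, up to 4 called members per direction and comparison with the smallest p, and the extremes per kilobase; of each pathway list, up to 2 called genes per comparison. Other genes singled out were chosen after their values had been examined. Fits were repeated with DESeq2 1.42.0, limma-voom 3.58.1 (with and without library weights), other size factors, other filters, non-robust dispersions, the compared libraries alone, the correction, and each library left out.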

Additional observations from a re-analysis of the deposited data

How the results depend on the processing

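Of the counts of members called, 4 moved by more than 1.5 times under a setting that kept all libraries. The transcript length and GC correction gave 17 for diet in WT (29 without it) and 24 for diet averaged over genotypes (37 without it). Calls over all genes went from 2634 to 1549 and from 3721 to 2835. For members, voom with library quality weights gave 35 for genotype on chow and 31 for genotype averaged over diets, where edgeR gave 0. It called 4047 and 3835 of all genes there, against 10 and 21 by edgeR. Leaving out each library in turn gave 0 to 38 members for diet in WT and 23 to 43 for diet averaged. It gave 0 to 1 for diet in meKO, 0 to 20 for genotype on chow and 0 to 3 for genotype averaged. For genotype on HFD and the interaction it gave 0. With the length and GC correction as well, an alternative chosen after seeing the data, diet in WT gave 0 and 7 without WT chow replicates 1 and 2, 8, 14 and 2 without WT HFD replicates 1 to 3, and 16, 19 and 16 without meKO chow replicate 1, meKO HFD replicate 1 and meKO HFD replicate 3 (at most 21). Diet averaged then gave 17 to 27, including 17 and 18 without WT chow replicates 1 and 2, 23, 21 and 17 without WT HFD replicates 1 to 3, 20 and 17 without meKO chow replicates 1 and 3, and 19 and 21 without meKO HFD replicates 2 and 3. Diet in meKO gave 0 to 1, genotype on chow 0 to 2 and genotype averaged 0 to 1. Over all genes, the leave-out fits called 96 to 4921 for diet in WT and 1957 to 5326 for diet averaged. They called 1 to 135 for diet in meKO, 2 to 2543 for genotype on chow and 8 to 1400 for genotype averaged. Genotype on HFD had 3 to 16 and the interaction 1 to 56. With the correction as well the ranges were 84 to 2169 for diet in WT and 1576 to 3357 for diet averaged. They were 5 to 497 for diet in meKO, 1 to 497 for genotype on chow and 10 to 285 for genotype averaged. Fewer libraries also leave less power, and the cause of these moves was not tested. Library totals in place of TMM moved the median of all genes for diet in WT to -0.12. The share of calls that were higher went from 44.5% to 31.3% (57.1% with the length and GC correction). With library totals 23 members were called for diet in WT, 21 higher and 2 lower. Of all genes 6.95% were called higher and 15.3% lower in that fit. For diet averaged over genotypes the share of calls that were higher was 49.3%, and 38.1% with library totals. None of the 25 diet results of single named members reversed under any alternative. All 25 were calls of the main fit in these same libraries, so the lack of reversals is no separate support. The call was lost in 188 of their 837 refits. Without WT chow replicate 1 it was lost for 17 of 25, and without WT HFD replicate 3 for 15 of 25. No paired analysis was possible because the labels give no replicate numbers, and those used follow accession order. Depth limits the low members most: Psmc3ip had 29 to 81 counts per library.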
